A study of Arabidopsis thaliana with 18 samples.

Results

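The genes described here encode the proteins that loosen and build the primary cell wall. They are the expansins (symbols starting with EXPA, EXPB, EXLA or EXLB), the xyloglucan endotransglucosylase/hydrolases (XTH) and the cellulose and cellulose-like synthases (CESA, CSL). They were picked by symbol, as probe sets that the array annotation ties to a single gene of these families. The members, XTH20 and EXPA16 among them, were chosen with earlier results of these data known. The rule found 34 of the 22810 probe sets on the array: 10 EXPA, 4 EXPB, 3 EXLA, 1 EXLB, 9 XTH and 7 CSL probe sets (2 CSLA, 4 CSLC and 1 CSLD). No CESA gene had a named probe set of its own here. A filter that left out the dimmest 30% of probe sets kept 23 of the 34, namely 5 EXPA, 2 EXPB, all 3 EXLA, the single EXLB, 5 XTH and all 7 CSL probe sets.

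A growing plant cell is held in a wall of cellulose microfibrils tied together by xyloglucan and embedded in pectin, and it can enlarge only as this network yields. Alpha-expansins (EXPA) loosen the network at acid pH without cutting it, and XTH enzymes cut xyloglucan chains and join the ends to other chains. Beta-expansins (EXPB) are relatives of the group-1 pollen allergens of grasses, and the expansin-like EXLA and EXLB proteins share the expansin fold but have no settled activity. Among the synthases, CSLC proteins make the glucan backbone of xyloglucan, CSLA proteins make mannans, and CSLD proteins act in cells that grow at the tip, such as root hairs.

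Arabidopsis thaliana plants (accession Tsu-1) gave the RNA, which was hybridised to 18 Affymetrix ATH1 arrays, a design based on the reference accession Col-0. On 9 arrays the plants had received 0.3 mM salicylic acid (SA), a defence hormone, in 0.02% silwet, and on the other 9 they had received 0.02% silwet, a surfactant, alone. In each treatment the replicate numbers 1, 2 and 3 recur in 3 consecutive runs of array numbers, called triplets here: SA arrays 100-102 with silwet arrays 91-93 (triplet 1), 103-105 with 94-96 (triplet 2) and 106-108 with 97-99 (triplet 3). The labels give no tissue, plant age or time after treatment and do not say what separates the triplets, so a batch, a time point and a growth stage cannot be told apart. Nothing in them says that the arrays came from separate plants, so p-values measure only how far these arrays scatter, and that scatter may be technical. Each value is a signal on a linear scale, scaled by the authors to the same trimmed mean on every array; precision is limited by how many arrays there are. How sequence differences between Tsu-1 and Col-0 act on these probe sets was not tested.

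The array medians ran from 26.01 to 35.9. SA array 100 had the lowest mean correlation with the other arrays, at 0.852, followed by silwet array 97 (0.88) and SA arrays 102 (0.887) and 101 (0.892), and the highest was 0.939. Of the 23 tested wall genes, 7 had a mean signal below the lowest array median. All 34 probe sets carry the suffix of probe sets designed to match 1 transcript. XTH18 and XTH19 are direct neighbours on chromosome 4, and EXLA1 and EXLA3 are direct neighbours on chromosome 3, with no protein-coding gene between them in RefSeq's assembly TAIR10.1.

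The first comparison asked whether the wall genes differed between the triplets, with SA and silwet arrays averaged. Those that passed for triplet 2 or triplet 3 against triplet 1 belonged to the expansins, expansin-like genes included, and the XTH genes. In these differences 7 expansins and XTH16 were higher in triplet 2, triplet 3 or both than in triplet 1, while XTH18 and XTH29 were lower. Among the 7, EXLB1 did not pass the F-test that follows (adjusted p = 0.0784). In an F-test over the 3 triplets with limma, a linear-model test for arrays, with p-values adjusted over all probe sets, 9 of the 23 tested wall genes passed an adjusted p of 0.05, where 22.9% of all 15922 tested probe sets did. They were 6 of 11 expansins, 3 of 5 XTH genes and 0 of 7 CSL genes, of which 2 had an unadjusted p under 0.05 (34.8% of all probe sets). With the replicate number as a block, the CSL genes CSLC5 and CSLC04 passed the F-test too, as given below. A difference between these families was not tested. The 9 include XTH18 and EXLA2, which passed the filter on dim probe sets only through the triplets where they were high. The filter favours genes that differ in this way, so the passing of these genes is not independent of it. Triplet 2 against triplet 1 gave 5 higher and 2 lower wall genes, where 12% of all probe sets were higher and 9.48% lower. Triplet 3 against triplet 1 gave 8 higher and 2 lower, where 12.9% were higher and 9.92% lower. Between triplets 3 and 2, 0 wall genes passed in limma, as did 0.182% of all probe sets, and 4 had an unadjusted p under 0.05, as did 8.89% of all. The median log2 difference of the 23 genes was 0.30 for triplet 2 minus triplet 1, against 0.14 over all probe sets, and 0.21 for triplet 3 minus triplet 1, against 0.09.

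**Figure D1:**
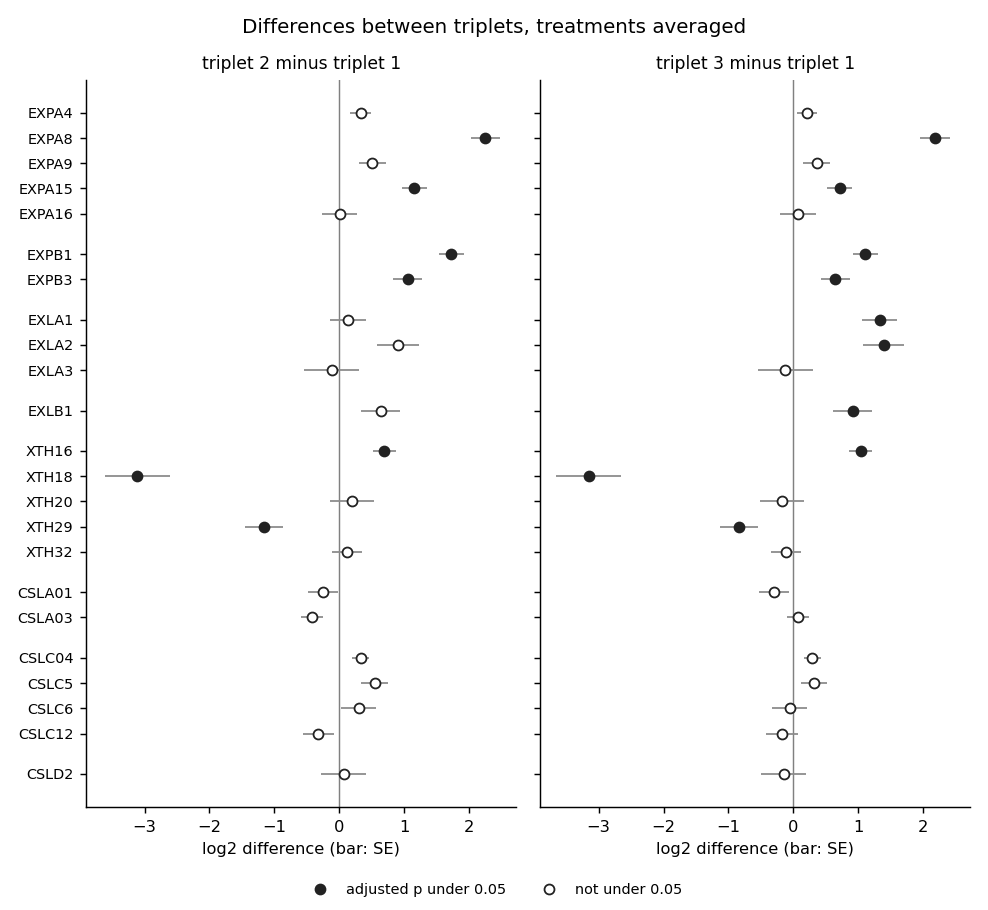
Log2 differences of the 23 tested wall genes for triplet 2 minus triplet 1 (left) and triplet 3 minus triplet 1 (right), SA and silwet arrays averaged, with bars of 1 SE and filled points where limma's adjusted p was under 0.05. EXPA8 lies at 2.26 and 2.19 and XTH18 at -3.11 and -3.15, and no CSL gene has a filled point.

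EXPA8, an alpha-expansin, differed most clearly. Its signal in triplet 2 was 461, 558 and 424 on the SA arrays and 212, 386 and 589.6 on the silwet arrays. In triplet 3 it was 311, 392 and 531 on the SA arrays and 337, 325 and 570.3 on the silwet arrays. In triplet 1 it was 104, 70.6 and 85.6 on the SA arrays and 85.5, 75.3 and 109.7 on the silwet arrays. Every array of triplets 2 and 3 lay above every array of triplet 1, and SA and silwet arrays overlapped within each triplet. The gene was 4.78-fold higher in triplet 2 (log2 difference 2.26, standard error (SE) 0.23, limma adjusted p = 4.8e-06) and 4.57-fold higher in triplet 3 (2.19, SE 0.23, adjusted p = 4.36e-06) than in triplet 1.

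EXPA15, another alpha-expansin, had signals of 116 to 197 in triplet 2 (median 149), 65.3 to 168 in triplet 3 (median 125) and 54.4 to 79.7 in triplet 1 (median 69.2). Triplet 2 lay wholly above triplet 1, whereas silwet array 97 of triplet 3 fell within the range of triplet 1. The difference from triplet 1 was 2.23-fold in triplet 2 (log2 1.16, SE 0.19, adjusted p = 0.000408) and 1.64-fold in triplet 3 (0.72, SE 0.19, adjusted p = 0.0121). The other 3 tested alpha-expansins, EXPA4, EXPA9 and EXPA16, did not pass, and their log2 differences from triplet 1 lay between 0.01 and 0.51. EXPA4 and EXPA9 are named after their values were seen.

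Both tested beta-expansins were higher in triplets 2 and 3. EXPB1 had signals of 51.2, 47.8 and 51.8 on the SA arrays and 44.2, 65.1 and 64.4 on the silwet arrays of triplet 2. In triplet 3 they were 36.7, 31.5 and 66.6 on the SA arrays and 24.8, 30.1 and 31.3 on the silwet arrays, and in triplet 1 they were 17.2, 11.3 and 16.4 on the SA arrays and 18.6, 17.5 and 17.04 on the silwet arrays. All 12 arrays of triplets 2 and 3 exceeded the 6 arrays of triplet 1. EXPB1 was 3.32-fold higher in triplet 2 (log2 1.73, SE 0.19, adjusted p = 9.73e-06) and 2.16-fold higher in triplet 3 (1.11, SE 0.19, adjusted p = 0.000494). EXPB3 ranged from 116 to 234 in triplet 2 (median 151), from 67.8 to 187 in triplet 3 (median 128) and from 39.0 to 142 in triplet 1 (median 76.0), so the triplets overlapped. It was 2.08-fold higher in triplet 2 (1.06, SE 0.22, adjusted p = 0.00273) and 1.57-fold higher in triplet 3 (0.65, SE 0.22, adjusted p = 0.0441). For triplet 3 minus triplet 1, a fit of the SA arrays alone gave 1.56 and a fit of the silwet arrays alone gave -0.27 (adjusted p = 0.656). The call of EXPB3 for triplet 3 was kept in 16 of 29 alternative settings and was lost without any one of arrays 92, 93, 95, 98, 100, 101, 103, 105, 106 and 107 (adjusted p = 0.0504 to 0.111).

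Expansin-like genes that passed were higher in triplet 3. EXLA1 ranged from 6.66 to 38.4 in triplet 2 (median 24.96), from 35.3 to 72.7 in triplet 3 (median 49.6) and from 10.8 to 34.5 in triplet 1 (median 18.7). Triplet 3 thus lay above triplet 1 on every array, by 2.52-fold (log2 1.33, SE 0.27, adjusted p = 0.00204), while triplet 2 minus triplet 1 gave 0.14 (SE 0.27, adjusted p = 0.754). That average joins 1.13 (SE 0.39, adjusted p = 0.04997) on the SA arrays and -0.85 (SE 0.39, adjusted p = 0.304) on the silwet arrays, and the difference between these values, 1.98 (SE 0.55), had an adjusted p of 0.138. EXLA2, whose loss in Arabidopsis alters the response to the fungus Botrytis, ranged from 10.9 to 18.1 in triplet 2 (median 13.5), from 15.7 to 29.0 in triplet 3 (median 18.3) and from 2.2 to 12.3 in triplet 1 (median 8.37). Its log2 mean in triplet 1, 2.86, lay below the filter's level of 3.21, so the size of its differences is imprecise. The log2 difference for triplet 3 was 1.40 (SE 0.32, adjusted p = 0.00408, and 0.00722 with no filter), and the difference of 0.91 (SE 0.32) for triplet 2 just missed the threshold (adjusted p = 0.0502). EXLB1 was higher in triplet 3 by 0.92 (SE 0.30, adjusted p = 0.0363), but its F-test over the triplets gave an adjusted p of 0.0784, and the call for triplet 3 was kept in 17 of 29 alternative settings. It was lost without any one of arrays 92, 93, 97, 101, 102, 106 and 108 (adjusted p = 0.0646 to 0.0977). EXLA3, the neighbour of EXLA1 and named after its values were seen, gave -0.12 (SE 0.42) for triplet 2 and -0.12 (SE 0.42) for triplet 3.

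The XTH genes did not move one way. XTH18, one of a closely related group of mainly root-expressed xyloglucan enzymes, had signals of 5.62, 8.32 and 17.6 on the SA arrays and 2.59, 6.82 and 13.7 on the silwet arrays of triplet 2. In triplet 3 they were 4.8, 3.68 and 17.1 on the SA arrays and 5.25, 11.7 and 9.12 on the silwet arrays. In triplet 1 they were 50.6, 31.8 and 103 on the SA arrays and 43.4, 64.8 and 178 on the silwet arrays. No array of triplets 2 and 3 reached the lowest array of triplet 1. The log2 difference was -3.11 (SE 0.50, adjusted p = 0.000323) in triplet 2 and -3.15 (SE 0.50, adjusted p = 0.000258) in triplet 3, with adjusted p of 0.000456 and 0.000372 with no filter. The log2 means of triplets 2 and 3, 2.93 and 2.89, lay below the filter's level of 3.21, where this kind of signal is imprecise, so the size of the difference is not well measured.

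XTH16 was higher outside triplet 1, with signals of 56.2 to 111 in triplet 2 (median 91.4), 74.9 to 152 in triplet 3 (median 108) and 41.4 to 67.7 in triplet 1 (median 54.8). It differed from triplet 1 by 1.62-fold in triplet 2 (log2 0.70, SE 0.18, adjusted p = 0.0118) and by 2.05-fold in triplet 3 (1.04, SE 0.18, adjusted p = 0.000657), where all 6 arrays exceeded all 6 of triplet 1. XTH29, named after its values were seen, ranged from 7.12 to 37.3 in triplet 2 (median 18.9), from 12.4 to 29.7 in triplet 3 (median 21.6) and from 17.6 to 63.6 in triplet 1 (median 39.7). It was 2.24-fold lower in triplet 2 (-1.16, SE 0.29, adjusted p = 0.00882) and 1.78-fold lower in triplet 3 (-0.83, SE 0.29, adjusted p = 0.048), where a fit of the SA arrays alone gave -1.89 and one of the silwet arrays alone 0.23 (adjusted p = 0.782). The call of XTH29 for triplet 3 was kept in 13 of 28 alternative settings and was lost without any one of arrays 92, 93, 97, 98, 99, 101, 102, 103, 106 and 107 (adjusted p = 0.0587 to 0.13). Its F-test did not pass without silwet array 93. XTH32, which belongs to the group of XTH proteins thought to act as hydrolases, and XTH20 did not pass, with differences of 0.13 and 0.20 for triplet 2 and of -0.11 and -0.18 for triplet 3.

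None of the 7 CSL genes passed the F-test, and their log2 differences from triplet 1 lay between -0.42 and 0.55. CSLC04, known for making the xyloglucan backbone, had signals of 312 to 405 in triplet 2 (median 371), 292 to 444 in triplet 3 (median 371) and 239.8 to 351.9 in triplet 1 (median 287). Its differences from triplet 1 were 0.33 (SE 0.13, adjusted p = 0.0866) and 0.30 (SE 0.13, adjusted p = 0.128). CSLC5 gave 0.55 (SE 0.21, adjusted p = 0.068) for triplet 2 and the mannan synthase gene CSLA03 gave -0.42 (SE 0.17, adjusted p = 0.092). With the replicate number as a block, 12 wall genes passed the F-test in place of 9, the added ones being EXLB1 (adjusted p = 0.00202), CSLC5 (0.00605) and CSLC04 (0.0457).

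**Figure D2:**
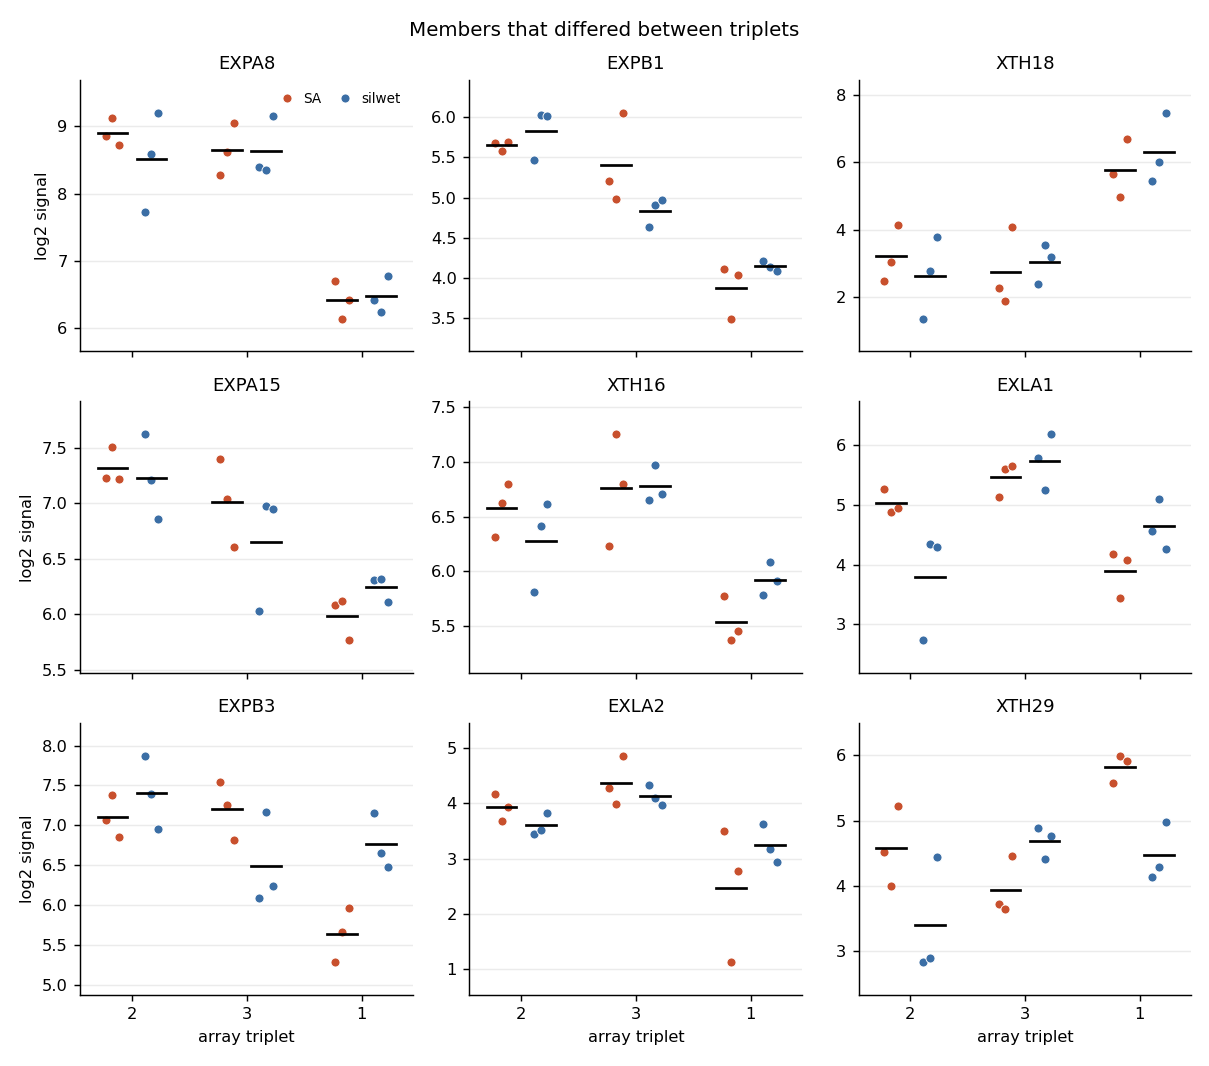
Log2 signal on each of the 18 arrays (SA left, silwet right within each triplet; black lines are means of 3 arrays) for the 9 wall genes that passed the F-test between triplets, with triplets 2, 3 and 1 along the horizontal axis. EXPA8 and EXPB1 lie higher and XTH18 lower on all 12 arrays of triplets 2 and 3 than on the 6 arrays of triplet 1, and for EXPB3, XTH29, EXLA1 and XTH16 the SA and silwet arrays of triplet 1 do not overlap. XTH18 and EXLA2 passed the filter on dim probe sets only through the triplets where they were high.

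EXPA8, EXPB1 and XTH18 were the 3 of 23 wall genes whose 12 arrays of triplets 2 and 3 did not overlap the 6 of triplet 1, where 4.45% of all probe sets did not overlap. Between triplets 2 and 1 alone 4 wall genes did not overlap (8.61% of all probe sets), between 3 and 1 there were 6 (7.79%), and between 3 and 2 there were 0 (1.38%). XTH18, and EXLA2 among the 6, passed the filter on dim probe sets only through the triplets where they were high. The filter thus favoured genes that separate as these did. The 17 called differences from triplet 1 had the same sign in each of the 3 replicate numbers. They were called on these same arrays, which makes a shared sign likely, so this is no separate support. Tested within the SA arrays, the F-test between triplets passed for EXPA8, EXPA15, EXPB1, EXPB3, EXLA1, EXLA2, XTH16, XTH18 and XTH29 (20.2% of all probe sets passed). Within the silwet arrays it passed for EXPA8, EXPB1, EXLA1 and XTH18 (4.53% of all). These counts do not show that the triplets differed more under SA, since the test of that difference is the interaction reported below.

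Few markers of tissue were measured beside the wall genes. Of 10 green leaf markers 5 had a named probe set. None passed the F-test between triplets, but SBPASE, an enzyme of the Calvin cycle, was higher in triplet 2 than in triplet 1 (log2 difference 0.31, SE 0.10, adjusted p = 0.0284). For the same difference the other markers went both ways and did not pass: RCA gave 0.32, LHCB4.1 0.15, PSAE-1 -0.06 and LHCB4.2 -0.23. The part of SBPASE in the wall gene differences was not tested. The 1 measured root marker of 9, PYK10, a beta-glucosidase of root endoplasmic reticulum bodies, was lower in triplet 3 than in triplet 1 (log2 difference -1.05, SE 0.26, limma adjusted p = 0.00766). It passed the F-test between triplets (adjusted p = 0.0207). Its log2 signal was 7.39 to 8.18 on SA and 6.85 to 7.9 on silwet arrays of triplet 2, 6.83 to 7.39 on SA and 6.76 to 7.64 on silwet arrays of triplet 3, and 7.12 to 8.26 on SA and 7.91 to 8.94 on silwet arrays of triplet 1. For triplet 2 minus triplet 1 PYK10 gave -0.56 (adjusted p = 0.141), and its part in the lower XTH18 and XTH29 signals was not tested. Of 10 markers of dividing cells 1 was measured, HTB11, and it did not pass the F-test between triplets (adjusted p = 0.666). Fewer cells of a type and less RNA per cell cannot be told apart in such samples. The log2 ratio of the 3′ to the 5′ actin probe set, a sign of RNA integrity, had medians of 1.88 in triplet 2, 2.02 in triplet 3 and 2.19 in triplet 1, and its part was not tested either.

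A wider list of 29 tested probe sets was picked by symbol prefixes of wall genes, and it also holds PRP39, a pre-mRNA processing gene. Of the 29, 7 passed the F-test between triplets, a share close to the 22.9% of all probe sets. TBL37, of a family of wall polysaccharide O-acetyltransferases, was lower in triplet 2 (log2 difference from triplet 1 -1.62, SE 0.21) and in triplet 3 (-2.14, SE 0.21), and TBL38 was lower in triplet 2 (-0.88, SE 0.21). TBL39 of the same family was higher by 0.69 (SE 0.23) and 1.07 (SE 0.23). GH9C2, an endoglucanase gene, was higher by 1.73 (SE 0.21) and 0.88 (SE 0.21) with SA and silwet arrays averaged, with adjusted p of 2.58e-05 and 0.00618. For triplet 2 the SA arrays gave 2.65 and the silwet arrays 0.80 (limma adjusted p = 0.186). The rise in triplet 3 was seen on the SA arrays only. The silwet arrays had a log2 mean of 8.29 in triplet 3, below their 8.63 in triplet 1. The F-test of the interaction passed for GH9C2 (limma adjusted p = 0.0216). In this list 4 were higher and 3 lower in triplet 2 (12% and 9.48% of all probe sets), and 6 were higher and 2 lower in triplet 3 (12.9% and 9.92% of all).

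The second comparison asked whether SA changed the wall genes relative to silwet. Averaged over the triplets, 0 of 23 passed in limma, as did 0% of all probe sets, and 3 had an unadjusted p under 0.05, as did 3.34% of all: XTH20, XTH29 and CSLA01. Within triplets 1, 2 and 3 the number passing was 0, while 3.24%, 0% and 0% of all probe sets passed. An unadjusted p under 0.05 was found for 6, 2 and 3 wall genes and for 17.4%, 2.3% and 6.98% of all probe sets. The median log2 difference of the 23 genes was -0.43 in triplet 1, where 5 were above 0 and the median over all probe sets was -0.10. It was 0.01 in triplet 2 and 0.13 in triplet 3, with 13 and 14 genes above 0 and medians over all probe sets of -0.03 and 0.04. Of all probe sets, 39.7%, 44.6% and 54.5% were above 0 in triplets 1, 2 and 3. With quantile normalization, 6 of the 23 genes and 48% of all probe sets were above 0 in triplet 1. The tests above hold no block for the replicate number. With the number as a block over all triplets, or the pair as a block within a triplet, 4 wall genes passed for SA in triplet 1. Over all probe sets 1402 and 1361 passed with these blocks, in place of 516.

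**Figure D3:**
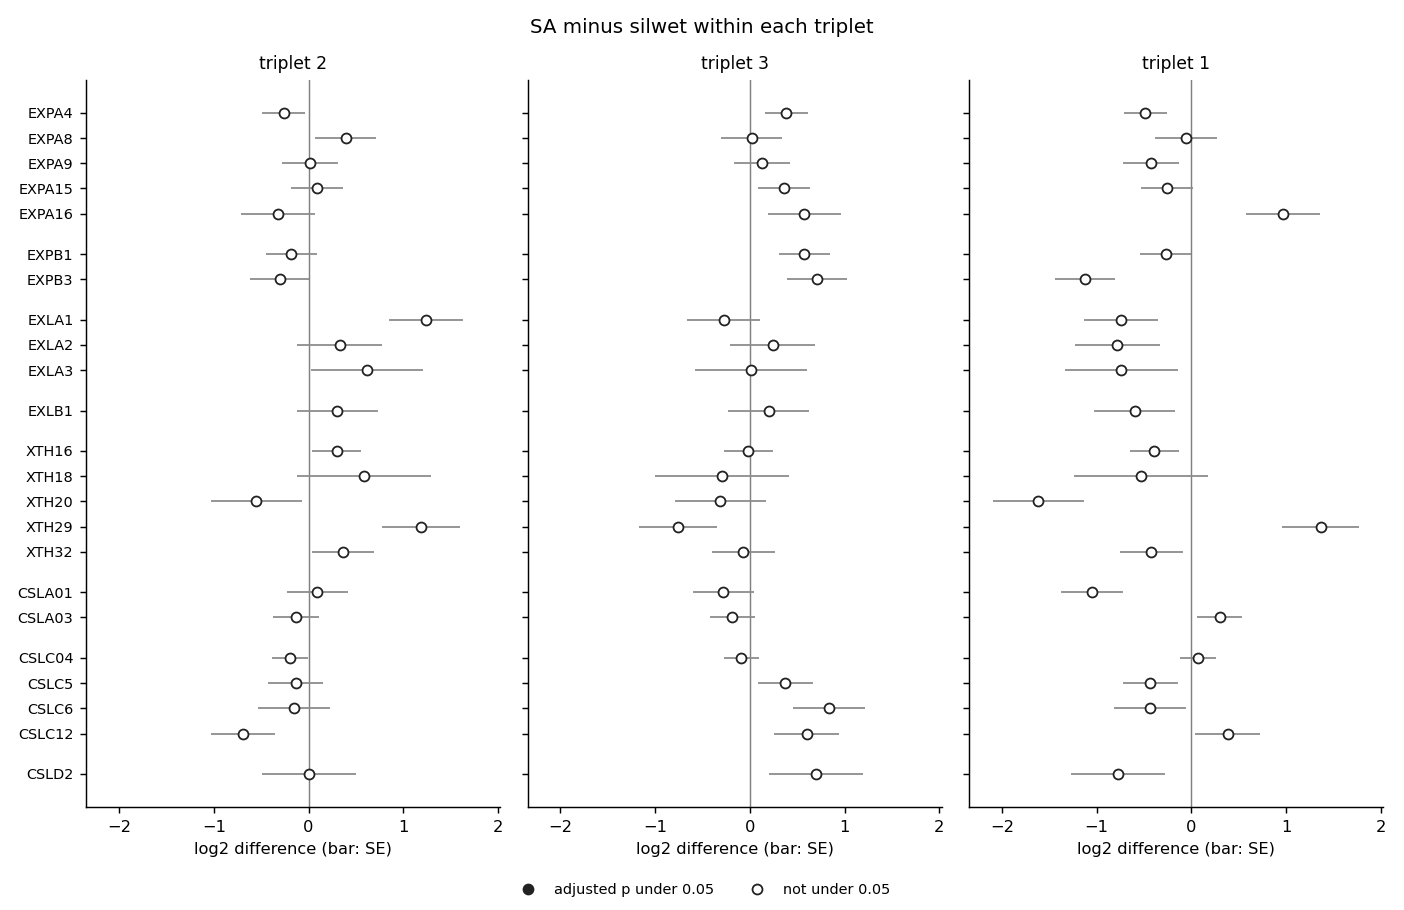
Log2 differences of SA minus silwet for the 23 tested wall genes within triplets 2, 3 and 1, with bars of 1 SE. No point is filled, since no adjusted p was under 0.05 in this fit, which holds no block for the replicate number. In triplet 1 the points run from -1.62 (XTH20) to 1.36 (XTH29) and 18 of 23 lie left of 0, where 39.7% of all tested probe sets were above 0.

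XTH20, a xyloglucan enzyme of the XTH18 and XTH19 group, had signals of 21.5, 6.08 and 10.5 on the SA arrays of triplet 1, against 50.2, 30.9 and 25.6 on the silwet arrays. In triplet 2 it had 23.2, 9.14 and 29.9 on the SA arrays and 46.6, 22.9 and 18.8 on the silwet arrays, and in triplet 3 it had 15.7, 14.5 and 16.2 on the SA arrays and 24.2, 17.1 and 17.1 on the silwet arrays. SA and silwet arrays did not overlap in triplets 1 and 3 and overlapped in triplet 2. The log2 differences were -1.62 (SE 0.48, adjusted p = 0.0759) in triplet 1, -0.55 (SE 0.48) in triplet 2 and -0.31 (SE 0.48) in triplet 3, with -0.83 (SE 0.28, adjusted p = 0.999) as their average. The replicate numbers paired SA with silwet arrays within a triplet, and with the pair as a block the difference in triplet 1 had an adjusted p of 0.0279. With the number as a block over all triplets it was 0.0155. Without array 100, which had the highest of the 3 SA signals in triplet 1, the difference was -2.09 (adjusted p = 0.0201).

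EXPB3 had signals of 39.0, 50.6 and 62.6 on the SA arrays of triplet 1, against 142, 100.4 and 89.4 on the silwet arrays, with no overlap. In triplet 2 it had 134, 167 and 116 on the SA arrays and 234, 168 and 124 on the silwet arrays. In triplet 3 it had 187, 152 and 112 on the SA arrays and 67.8, 143 and 75.6 on the silwet arrays, which overlap. The difference was -1.12 (SE 0.31, adjusted p = 0.0598) in triplet 1, -0.30 (SE 0.31) in triplet 2 and 0.71 (SE 0.31, adjusted p = 0.615) in triplet 3. In triplet 1 the adjusted p was 0.0459 with the pair as a block and 0.0284 with the number as a block. The SA effect in triplet 3 minus that in triplet 1 was 1.83 (SE 0.44, adjusted p = 0.037), the one called value of the 23 genes in that comparison, where 3.05% of all probe sets passed. That call was lost without any one of arrays 91, 92, 95, 97, 99, 100, 106 and 107, with adjusted p of 0.105, 0.0741, 0.0554, 0.0843, 0.0973, 0.0594, 0.1 and 0.0881. The F-test of the interaction over the 3 triplets passed for 0 of 23 wall genes in limma and for 1% of all probe sets, with an unadjusted p under 0.05 for 5 wall genes and for 15.3% of all. For EXPB3 its adjusted p was 0.104.

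XTH29 ran the other way in triplet 1, with 47.9, 63.6 and 60.5 on the SA arrays, against 17.6, 19.5 and 31.4 on the silwet arrays, with no overlap. In triplet 2 it had 22.9, 16.01 and 37.3 on the SA arrays and 7.12, 7.44 and 21.8 on the silwet arrays, and in triplet 3 it had 13.1, 12.4 and 21.9 on the SA arrays and 29.7, 21.2 and 27.3 on the silwet arrays. The differences were 1.36 (SE 0.41, adjusted p = 0.0802), 1.19 (SE 0.41) and -0.75 (SE 0.41). With the pair as a block the difference in triplet 1 had an adjusted p of 0.0129, and with the number as a block 0.0122. The F-test of the interaction for XTH29 gave an adjusted p of 0.11, of 0.0212 with the pair as a block and of 0.0159 with the number as a block, where EXPB3 gave 0.0726 and 0.0405.

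CSLA01, a mannan synthase gene, had 10.04, 13.3 and 8.76 on the SA arrays of triplet 1, against 18.5, 27.2 and 20.6 on the silwet arrays, without overlap. The difference was -1.05 (SE 0.33, adjusted p = 0.0901), with adjusted p of 0.0731 with the pair and 0.0444 with the number as a block, and 0.09 (SE 0.33) in triplet 2 and -0.28 (SE 0.33) in triplet 3. EXPA16, an alpha-expansin, had 60.1, 27.0 and 28.3 on the SA arrays of triplet 1, against 25.1, 14.0 and 17.5 on the silwet arrays. Its differences were 0.97 (SE 0.39, adjusted p = 0.196) in triplet 1, -0.32 (SE 0.39) in triplet 2 and 0.58 (SE 0.39) in triplet 3. The first of these had an adjusted p of 0.0423 with the pair as a block and the difference was 0.59 without array 100, which carried the highest signal. Averaged over the triplets, EXPA16 gave 0.41 (SE 0.22, adjusted p = 0.999).

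SA and silwet arrays did not overlap for 9 of the 23 wall genes in triplet 1, where 19.5% of all probe sets did not overlap. All SA arrays lay above the silwet arrays for 3, EXPA16, XTH29 and CSLA03 (9.25% of all), and below them for 6, XTH20, EXPB3, CSLA01, EXLA1, XTH16 and EXPA4 (10.2%). In triplet 2 there were 4 (9.75% of all), with SA above silwet for EXLA1 and XTH32 (4.13%) and below it for CSLC12 and CSLC04 (5.62%). In triplet 3 there were 5 (9.19% of all), with SA above silwet for EXPB1, EXPA4, CSLC6 and CSLC12 (4.61%) and below it for XTH20 (4.58%). EXLA1, EXPA4 and CSLC12 appeared with opposite directions in different triplets, and none of the 3 passed the F-test of the interaction (adjusted p = 0.137 for EXLA1, 0.302 for EXPA4 and 0.29 for CSLC12). CSLC12 had a mean log2 signal of 3.32, close to the filter's level of 3.21. Its means on the SA arrays of triplet 2 (2.82) and the silwet arrays of triplet 3 (3.02) lay below that level. It thus passed the filter only through groups where it was higher, and its separation in these triplets is not independent of the filter.

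**Figure D4:**
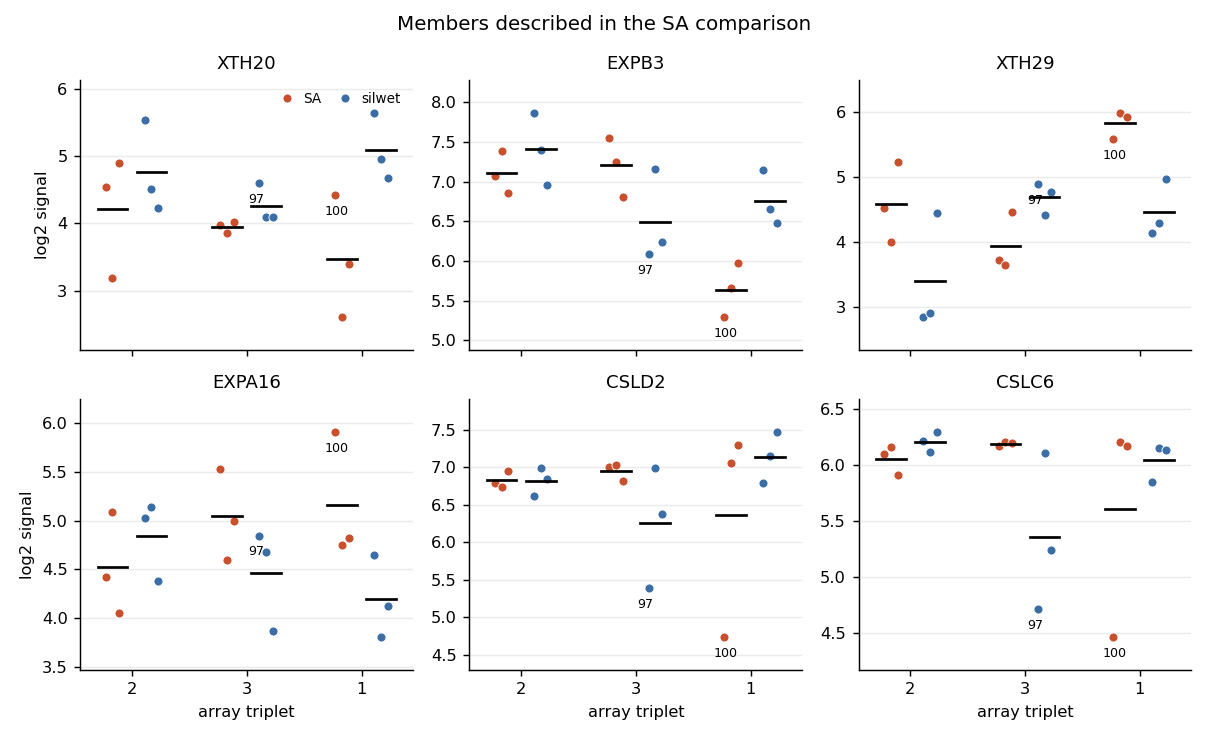
Log2 signal on each array (SA left, silwet right within each triplet; black lines are means of 3 arrays) for XTH20, EXPB3, XTH29, EXPA16, CSLD2 and CSLC6, with triplets 2, 3 and 1 along the horizontal axis and arrays 97 and 100 marked. CSLD2 and CSLC6 have their lowest signals on these 2 arrays, at 26.7 and 22.0 on array 100 and at 41.8 and 26.3 on array 97 on the linear scale.

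CSLD2 and CSLC6, both synthase genes, were low on single arrays. CSLD2 had 26.7, 133 and 157 on the SA arrays of triplet 1, against 110.3, 142 and 177 on the silwet arrays, and 128, 131 and 113 on the SA arrays of triplet 3, against 41.8, 128 and 83.2 on the silwet arrays. CSLC6, named after its values were seen, had 22.0, 73.5 and 71.8 on the SA arrays of triplet 1, against 57.5, 71.2 and 70.0 on the silwet arrays, and 72.0, 73.5 and 73.3 on the SA arrays of triplet 3, against 26.3, 68.8 and 37.7 on the silwet arrays. SA array 100 and silwet array 97, the 2 with the lowest mean correlations, were the 2 lowest of 18 for both genes. This was so for 2 of the 23 wall genes, against 12.8% of all tested probe sets. The log2 ratio of the 3′ to the 5′ probe set was 3.19 for actin and 0.86 for GAPDH on array 100 and 2.38 and 0.55 on array 97, where the other arrays ran from 1.5 to 3.42 and from -0.48 to 0.66, and its part was not tested. The CSLD2 differences were -0.77 (SE 0.50) in triplet 1 and 0.70 (SE 0.50) in triplet 3, and those of CSLC6 were -0.43 (SE 0.38) and 0.84 (SE 0.38). None passed.

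Among the wider list of 29 genes, 3 passed in triplet 1, all lower on the SA arrays (1.27% of all probe sets were called lower). GH9C2 differed by -1.63 (SE 0.30, adjusted p = 0.00926), TBL25 by -1.10 (SE 0.23, adjusted p = 0.0176) and GH9B8, an endoglucanase gene, by -1.37 (SE 0.35, adjusted p = 0.0434). PME61, a pectin methylesterase gene, gave 0.87 (SE 0.23) and did not pass (adjusted p = 0.0516). GH9C2 gave 0.22 (SE 0.30) in triplet 2 and 0.81 (SE 0.30) in triplet 3, and its SA effect in triplet 3 minus that in triplet 1 was 2.43 (SE 0.42, adjusted p = 0.00983).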

How the data were processed

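The authors deposited one table of signal intensity per probe set and array on a linear scale, and the submitters' processing notes name MAS5 without a version. After trimming 2% at either end, each array averaged 100.01, and no further scaling was applied. Gene names came from the platform annotation, updated through RefSeq's TAIR10.1 table: 13513 probe sets had 1 gene, 503 several and 8730 none named here.

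Values were taken as log2. The 64 control probe sets and the lowest 30% by mean log2 signal were left out, which left 15922. Differences were tested in R 4.3.3 with limma 3.58.1 (lmFit, eBayes with a mean-variance trend) as means of the 6 groups of 3 arrays, with 12 residual degrees of freedom and Benjamini-Hochberg adjustment per comparison over the 15922, at a threshold of 0.05. A fit with treatment only called 0 members for SA against silwet, as did the main fit for the difference averaged over triplets. Each SE is that of the model. The test was checked on simulated data.

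The members and the gene lists were chosen with earlier results of these data known. The rule for named genes took up to 8 called members per result, the members with the largest treatment difference, triplet range or mean signal in each family, and XTH20 and EXPA16. Same-numbered SA and silwet arrays of a triplet deviated together (correlations of 0.216 to 0.481, median 0.325, over 9 pairs), so the numbers pair arrays within a triplet. Same-numbered arrays of different triplets also tended to deviate together (-0.159 to 0.627, median 0.288, over 36 pairs). The main tests hold no block for the number, and fits with such a block are given beside them. The alternatives were another filter, floor, normalization, array weighting, no trend, the replicate block, arrays of 1 treatment or triplet, and each array or number left out. No sequences or coordinates are given.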

Additional observations from a re-analysis of the deposited data

Results flagged for a closer look

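EXPB3, a beta-expansin gene, gave an SA effect that differed between triplets 1 and 3 in a direct test, which 3.05% of all probe sets passed. Its F-test of the interaction over the 3 triplets did not pass (limma adjusted p = 0.104). The SA effect in triplet 3 minus that in triplet 1 was 1.83 on the log2 scale (SE 0.44, limma adjusted p = 0.037, 3 arrays per treatment and triplet), from an SA minus silwet difference of 0.71 in triplet 3 and of -1.12 in triplet 1. Over 29 alternative settings it ranged from 1.08 to 2.21, kept its sign in all 29 and passed in 17. The lowest value was found without replicate 1, and without arrays 97 and 100, the 2 least correlated with the rest, it was 1.45 (adjusted p = 0.0892). Under quantile normalization, which moved the median of this comparison over all probe sets to -0.01, against 0.15 before, it was 1.59 (adjusted p = 0.042).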

How the results depend on the processing

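The 18 called differences of single wall genes were recomputed under 29 alternative settings. Of 514 values 453 stayed past the threshold, and 0 turned sign. Beside these settings, fits of 1 treatment's 9 arrays turned the silwet value for triplet 3 minus triplet 1 of EXPB3 to -0.27 and of XTH29 to 0.23. The F-tests of EXPA8, EXPB1 and XTH18 between triplets passed in every setting that tested them (EXPB1 and XTH18 fall to the filter on the lowest 50%). Without replicate 2 those of EXLA2, EXPA15, EXPB3, XTH16 and XTH29 were lost, without replicate 3 those of EXLA1, EXLA2 and XTH16, and without replicate 1 or silwet array 93 that of XTH29. The count of 9 wall genes differing between triplets was 4 with the lowest 50% of probe sets left out (12 genes tested). It was 3 in a separate fit of the silwet arrays only and 4 to 10 with an array or replicate number left out. The count of 0 for SA in triplet 1 was 1 with the lowest 50% left out, 4 with array weights, 1 without arrays 97 and 100 and 0 to 1 with an array or number left out. The count of 0 for SA in triplet 3 was 8 with array weights, and the cause was not tested.

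With the replicate block, the number over all triplets or the pair within a triplet, 4 wall genes passed for SA in triplet 1 in each fit (XTH20, EXPB3 and XTH29 in both, CSLA01 with the number and EXPA16 with the pair), and the interaction count of 0 was 2 and 1. That interaction count was 8 with array weights and 0 to 1 with an array or number left out. The block left the counts of 0 for SA averaged over triplets and in triplets 2 and 3 as they were. Over all probe sets, the 516 calls for SA in triplet 1 were 1402 with the number block, 1361 with the pair block, 2045 with array weights, 1227 without arrays 97 and 100, 5 on triplet 1 alone and 3 to 869 with an array or number left out. The 3642 calls between triplets were 8388 with array weights, 673 in the separate fit of the silwet arrays and 1015 to 4715 with an array or number left out. The 160 interaction calls were 936, 697, 5586 and 0 to 683 under the number block, the pair block, array weights and the omissions. The 0 averaged SA calls were 20 and 21 with the blocks and 257 with weights, and the 0 calls of triplet 3 were 5380. Array weights ran from 0.133 (array 100) to 5.12 (array 95). Quantile normalization called 5 higher and 2 lower wall genes in triplet 2 and 7 higher and 1 lower in triplet 3 against triplet 1.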

Other observations

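The 11 wall genes that were too dim to be tested were 5 alpha-expansins, 2 beta-expansins and 4 XTH genes. They include genes known from roots, such as EXPA7 and EXPA18 of root hairs, XTH21, and XTH26 of root hairs. EXPA7 ranged from 1.86 to 14.8, EXPA18 from 1.83 to 14.9, EXPA20 from 3.63 to 13.2 and EXPA21 from 0.538 to 2.07 over the 18 arrays. EXPB2 ranged from 3.5 to 13.9, EXPB5 from 3.95 to 16.5 and XTH33, an enzyme anchored in the plasma membrane, from 1.13 to 18.2. XTH21 stayed between 0.248 and 1.57 and XTH26 between 0.24 and 0.754 on all 18 arrays. EXPA24 reached 11.7 on SA array 103 and 13.7 on silwet array 97 and was at most 3.03 on every other array.

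XTH19, the chromosomal neighbour of XTH18 and named after its values were seen, had signals of 2.96, 0.718 and 6.66 on the SA arrays of triplet 1 and of 1.41, 12.9 and 8.33 on the silwet arrays. In triplets 2 and 3 it stayed at 1.91 or below on all 12 arrays. Without the filter on dim probe sets, its log2 differences were -1.84 (SE 0.62, limma adjusted p = 0.0581) for triplet 2 minus triplet 1 and -2.07 (SE 0.62, adjusted p = 0.0308) for triplet 3 minus triplet 1. These signals lie far below every array median.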
